A study of Homo sapiens with 8 samples.

Results

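MYOD1, MYOG, MYF5 and MYF6 are the 4 myogenic regulatory factors, and the mark H3K4me2 around them was read here in rhabdomyosarcoma cells after knockdown of LSD1. The genes lie in 3 places of the hg19 build. The intervals used were 17.741 to 17.744 Mb of chromosome 11 for MYOD1, 203.052 to 203.056 Mb of chromosome 1 for MYOG, and 81.101 to 81.114 Mb of chromosome 12 for MYF6 and MYF5, which are neighbours. Each interval was widened by 50 kb on both sides, which gave windows of 103, 104 and 113 kb. All peaks that overlapped a window were taken, whatever their values, and these were 90 of the 280986 peaks in the 6 deposited lists. Merging the peaks of the 4 library lists gave 19 regions in the windows out of 58952 in the genome.

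The cells were RD, an established line from a human embryonal rhabdomyosarcoma, a tumour that expresses myogenic factors but does not complete muscle differentiation. One group was transfected with a single small interfering RNA (siRNA) construct against LSD1 (siLSD1) and the other with a control siRNA (siCtrl). Both had a medium change at 8 hours and were harvested at 96 hours. Each group had 2 H3K4me2 libraries, which the submitters call biological replicates, and 1 list of pooled replicates. Input libraries were not analysed here, and these data do not measure LSD1 itself.

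The 4 factors are basic helix-loop-helix proteins that bind DNA at E-boxes and switch on muscle genes. In the embryo, MYF5 and MYOD1 commit cells to the muscle lineage, MYOG drives terminal differentiation, and MYF6, also called MRF4, acts in both determination and mature fibres. H3K4me2 marks promoters and enhancers that are active or poised, and LSD1, encoded by KDM1A, is a demethylase that acts on the mono- and dimethylated forms of this lysine. MYOD1 is controlled in mouse and human by enhancers upstream of the gene, among them a core enhancer and a distal regulatory region. MYF5 and MYF6 are controlled by many elements spread over the sequence upstream of the pair.

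The promoters of 3 members, matched by symbol in RefSeq sequences of GRCh38.p14, are shown. In every list MYOG carried a peak over the start edge of its interval, and the MYF5-MYF6 interval held no peak. Each line gives the 250 bases before the gene start, 5′ to 3′ on the gene's strand. Capitals mark the E-box CANNTG, bound by the factors themselves, and the core CTANNNNTA of the site of MEF2, a partner of the factors; both strands were searched, and the matches to the 2 motifs did not overlap.
MYOG (chr1:203086013-203086262, minus strand): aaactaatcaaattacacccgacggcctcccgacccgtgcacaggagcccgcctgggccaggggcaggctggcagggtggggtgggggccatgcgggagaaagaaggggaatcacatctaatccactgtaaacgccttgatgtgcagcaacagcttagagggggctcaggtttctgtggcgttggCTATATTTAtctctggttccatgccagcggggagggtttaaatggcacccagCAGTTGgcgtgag
MYF5 (chr12:80716662-80716911, plus strand): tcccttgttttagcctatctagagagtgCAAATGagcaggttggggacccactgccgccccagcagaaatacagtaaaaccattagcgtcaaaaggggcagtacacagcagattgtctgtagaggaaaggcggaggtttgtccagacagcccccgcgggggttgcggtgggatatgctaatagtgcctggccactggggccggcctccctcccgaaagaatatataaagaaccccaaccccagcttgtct
MYF6 (chr12:80707384-80707633, plus strand): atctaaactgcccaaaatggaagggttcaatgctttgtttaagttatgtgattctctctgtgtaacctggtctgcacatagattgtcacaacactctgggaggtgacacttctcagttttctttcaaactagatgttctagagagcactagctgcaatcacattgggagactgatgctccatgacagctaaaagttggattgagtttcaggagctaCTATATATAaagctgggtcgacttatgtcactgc
MYOG had an E-box, CAGTTG, at bases -13 to -8 from the start and a MEF2 core, CTATATTTA, at -65 to -57. MYF5 had 1 E-box and no MEF2 core in this stretch, and MYF6 had a MEF2 core and no E-box. An E-box of these letters was present in 61.8% of 35116 promoters of the same length and the MEF2 core in 14.6%, so the matches describe the sequence only.

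The lists differed in length. The siLSD1 libraries had 50587 and 49611 peaks, against 33878 and 44831 in the siCtrl libraries, on chromosomes 1 to 22 and X. Each peak has a score given by the authors' peak caller, which was used only to rank peaks within their own list. The lists hold no read counts, so the depth behind a peak is unknown. In bulk chromatin, fewer cells with the mark and less mark per cell cannot be told apart.

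The MYOD1 and MYOG windows were among the more heavily marked of the genome, and the MYF5-MYF6 window was not. Averaged over the 4 libraries and scaled to 100 kb, the MYOD1 window had more sequence under peaks than 96.1% of the 18417 windows of 100 kb that held a peak. The MYOG window exceeded 98.1% of them and the MYF5-MYF6 window 34.4%. The median of such windows was 3.33 kb under peaks.

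**Figure D1:**
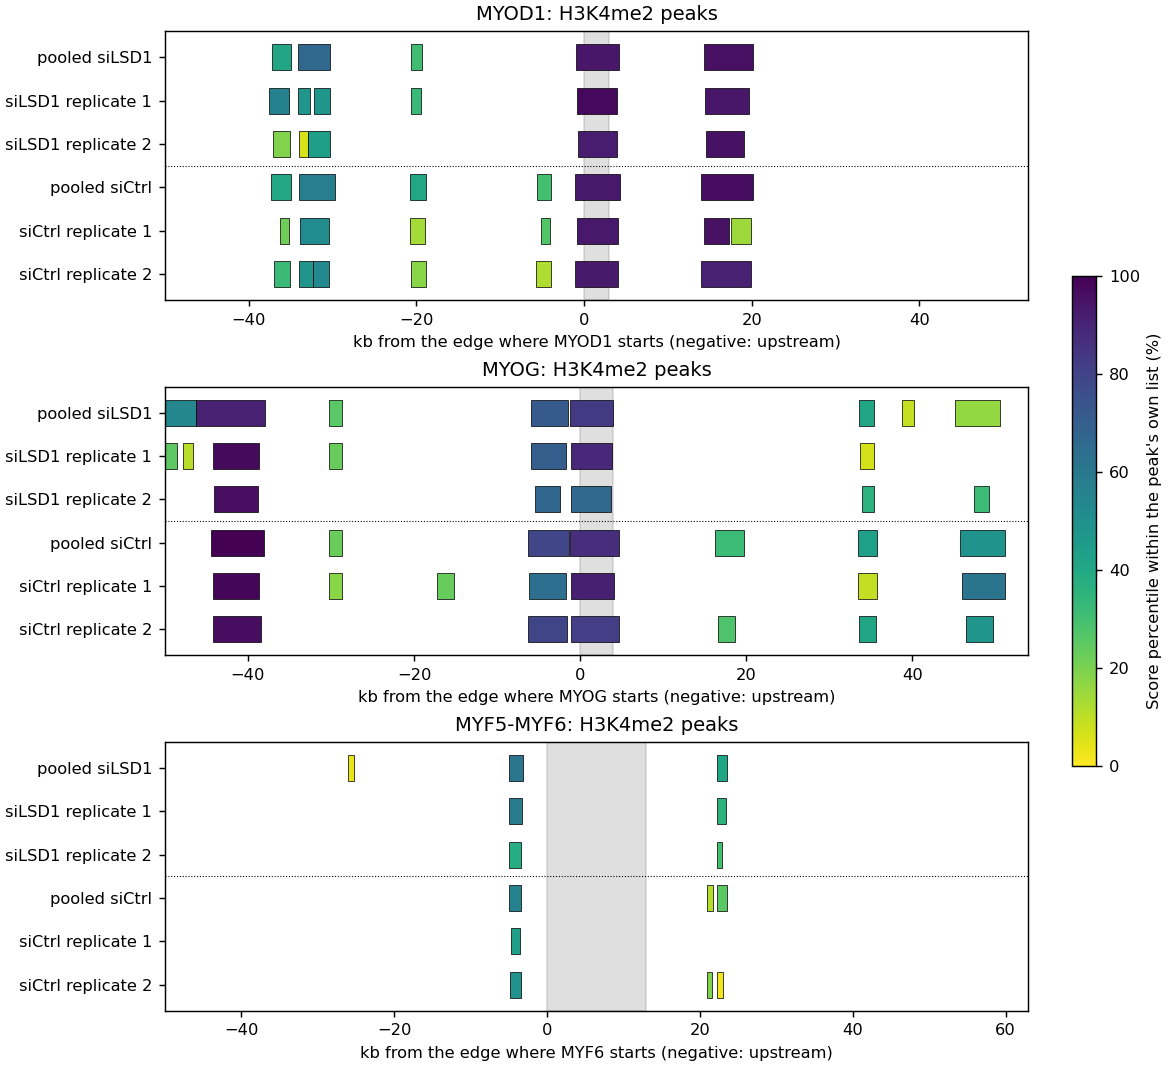
Peaks of H3K4me2 in the 3 windows, as kb from the edge where MYOD1, MYOG or MYF6 starts, with the gene interval shaded and 1 row per list, siLSD1 above siCtrl. Colour is the percentile of the peak's score in its own list; MYOD1 and MYOG carry a peak over the gene in all 6 lists, at percentile 66.5 or above, and no list has a peak in the MYF5-MYF6 interval.

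At MYOD1, a factor that can convert other cells to muscle, both siLSD1 libraries had less marked sequence than both siCtrl libraries. The window had 17.0 and 15.0 kb under peaks in siLSD1 replicates 1 and 2, against 17.6 and 19.9 kb in siCtrl replicates 1 and 2. The means were 16.0 ± 1.39 kb after siLSD1 and 18.8 ± 1.62 kb after siCtrl (SD, n = 2 each), a difference of -2.80 kb and a ratio of 0.851. Peak number went the same way, with 6 and 5 peaks in the siLSD1 libraries and 7 and 7 in the siCtrl libraries. It is not a count of marked sites, as some regions were called as 2 peaks. This held for the downstream region in siCtrl replicate 1. It also held for the region 34.1 to 30.3 kb upstream in both siLSD1 libraries and siCtrl replicate 2. For both measures the groups did not overlap, and a two-sided exact permutation test gave p = 0.333, the floor for a design of this size. Peak numbers overlapped with equal numbers of peaks (5 and 3 after siLSD1, 7 and 5 after siCtrl, exact permutation p = 0.667) and in the upper 50% of each list by score (p = 1), where covered sequence gave p = 0.667. Over the genome, 4.64% of 100-kb windows with a peak had less covered sequence in both siLSD1 libraries, and 1.41% had fewer peaks in both. The median window held only 1 or 2 peaks per library, so the last share is not one of windows like MYOD1. The nearest pair of libraries, siLSD1 replicate 1 and siCtrl replicate 1, differed by less than the replicates of either siRNA did.

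The peak over MYOD1 itself was present in every list and covered 100% of the gene interval. Its score stood at percentiles 97.7 and 92.4 of the siLSD1 lists and at percentiles 93.5 and 93.3 of the siCtrl lists. The peak was 4.83 and 4.72 kb wide in the siLSD1 libraries, against 4.88 and 5.18 kb in the siCtrl libraries. Both siLSD1 peaks were thus narrower than both siCtrl peaks, with a mean difference of -0.262 kb. The groups did not overlap at the far edge, which lay 3.92 and 3.97 kb from the gene start in siLSD1 libraries and 4.04 and 4.09 kb in siCtrl libraries. At the upstream edge the groups overlapped, with -0.907 and -0.746 kb in siLSD1 and -0.844 and -1.09 kb in siCtrl libraries.

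Upstream of MYOD1 the list of marked regions differed more than at the gene. A region at 17735223 to 17737062, from 5.78 to 3.94 kb before the gene start, had no peak in either siLSD1 library and a peak of 1.11 and 1.84 kb in siCtrl replicates 1 and 2. The pooled lists showed the same pattern, with no peak after siLSD1 and a 1.75-kb peak after siCtrl. It was a weak peak even in control cells, with scores of 95.4 and 70.4 at percentiles 27.2 and 11.9 of the siCtrl lists. The next peak before MYOD1 was 18463 and 29593 bp away in siLSD1 replicates 1 and 2, the second of which also lacked the next region out, and 3214 and 2849 bp away in the siCtrl libraries. Whether this region is one of the known MYOD1 enhancers was not tested.

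A second upstream region, 20.8 to 18.9 kb before MYOD1 at 17720226 to 17722066, had 1.23 kb and no sequence under a peak in siLSD1 replicates 1 and 2. It had 1.73 and 1.65 kb in siCtrl replicates 1 and 2, so both siLSD1 libraries were below both siCtrl libraries. Here the pooled siLSD1 list kept a peak, of 1.27 kb against 1.94 kb in the pooled siCtrl list. Farther out the order changed. The region 37.6 to 35.1 kb upstream was broader in both siLSD1 libraries, at 2.40 and 2.06 kb against 1.06 and 1.92 kb in the siCtrl libraries. The region 34.1 to 30.3 kb upstream had 3.26 and 3.64 kb after siLSD1 and 3.45 and 3.53 kb after siCtrl, with the groups overlapping.

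Downstream, on the side of KCNC1, a potassium channel gene that RefSeq lists next to MYOD1 in GRCh38.p14, a strong region ran from 14.0 to 19.9 kb after the gene start. It had 5.26 and 4.59 kb under peaks in the siLSD1 libraries and 5.41 and 5.82 kb in the siCtrl libraries. Its highest score was at percentile 90.8 or above in each of the 6 lists. No hg19 gene annotation was used here, so the region was not assigned to a gene.

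At MYOG, the factor of terminal differentiation, the difference was larger. The window had 20.6 and 16.4 kb under peaks in siLSD1 replicates 1 and 2, against 25.9 and 23.5 kb in siCtrl replicates 1 and 2. The means were 18.5 ± 3.01 kb after siLSD1 and 24.7 ± 1.71 kb after siCtrl (SD, n = 2 each). This is a difference of -6.24 kb and a ratio of 0.748, again at the exact permutation floor of 0.333. The pooled lists went the other way, with 31.9 kb after siLSD1 and 29.8 kb after siCtrl, a difference of 2.07 kb. Peak number overlapped between the groups, with 7 and 5 peaks in siLSD1 and 7 and 6 in siCtrl libraries (two-sided exact permutation p = 1). The sign of its mean difference of -0.5 peaks also changed with the lists used: it was 0.5 without siLSD1 replicate 2 and 1 in the pooled lists.

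**Figure D2:**
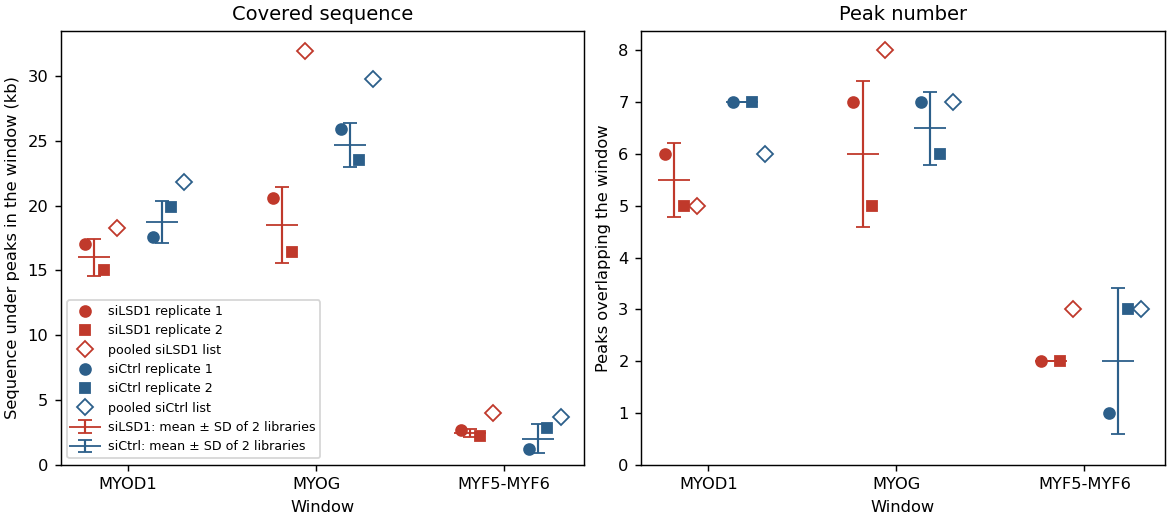
Sequence under peaks (kb, left) and number of peaks (right) in each window; filled symbols are the library lists, bars the mean ± SD of 2 libraries, and open diamonds the pooled lists, with siLSD1 left of siCtrl. In covered sequence, both siLSD1 libraries lie below both siCtrl libraries at MYOD1 and MYOG but not at MYF5-MYF6, and the pooled siLSD1 list is the higher one at MYOG.

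The MYOG interval lay wholly or mostly under a peak in all 6 lists. Its score stood at percentiles 88.8 and 66.5 of the siLSD1 lists and 91.4 and 81.9 of the siCtrl lists. RefSeq also places the long noncoding RNA gene MYOPARR over MYOG in GRCh38.p14, so the peak cannot be given to one of them alone. It was 5.03 and 4.83 kb wide in the siLSD1 libraries and 5.19 and 5.79 kb wide in the siCtrl libraries, a mean difference of -0.557 kb with no overlap. The end on the 3′ side of the gene differed, at 3.88 and 3.75 kb from the gene start in siLSD1 libraries, against 4.11 and 4.66 kb in siCtrl libraries. The peak covered 97 and 93.8% of the gene interval in siLSD1 replicates 1 and 2 and 100% in both siCtrl libraries. The interval is set in whole kb and not by annotation, so a share below 100% need not mean uncovered gene sequence. The end over the promoter did not separate the groups, at -1.15 and -1.08 kb in siLSD1 and -1.08 and -1.13 kb in siCtrl libraries. In every library the peak reached over 1 kb past the start edge of the interval. The 250 promoter bases printed above are therefore inferred to lie in the marked stretch. Their GRCh38.p14 positions were not mapped to hg19.

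A second peak lay just upstream of the MYOG promoter, between 6.27 and 1.52 kb before the gene start. It held 4.29 and 3.04 kb in the siLSD1 libraries and 4.41 and 4.75 kb in the siCtrl libraries, so both siLSD1 values were lower. The gap between the 2 peaks was 527 and 1304 bp in the siLSD1 libraries and 638 and 393 bp in the siCtrl libraries, where the groups overlapped. In siLSD1 replicate 2 the upstream peak had a score of 381 and the peak over the gene 377. In the other 5 lists the peak over the gene had the higher score of the pair, for example 679 against 331 in siLSD1 replicate 1 and 1125 against 1013 in siCtrl replicate 2.

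Distant regions made up much of the MYOG difference. The region 46.0 to 51.2 kb past the gene start, on the side of PPFIA4, had no sequence under a peak in siLSD1 replicate 1 and 1.71 kb in siLSD1 replicate 2. It had 5.23 and 3.18 kb in siCtrl replicates 1 and 2, a mean difference of -3.35 kb and the largest of the 19 regions. The pooled siLSD1 list nevertheless had 5.49 kb there, close to the 5.52 kb of the pooled siCtrl list, with a score at percentile 16.4 against 48.7. With flanks of 25 kb, which leave out this and other outer regions, the difference of the MYOG window was -3.44 kb. The region 33.5 to 35.7 kb past the gene start had 1.64 and 1.48 kb in the siLSD1 libraries and 2.17 and 2.03 kb in the siCtrl libraries.

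The strongest peak of the MYOG window lay 44.2 to 38.4 kb upstream, on the side of the adenosine receptor gene ADORA1. It had 5.54 and 5.30 kb in the siLSD1 libraries and 5.54 and 5.82 kb in the siCtrl libraries, and the groups overlapped. In the pooled lists this peak was 8.24 kb wide after siLSD1 and 6.33 kb wide after siCtrl, at score percentiles 90.9 and 99.7. Beyond it, a pair of small regions, the nearer starting 46.6 kb upstream, had peaks in siLSD1 replicate 1 only, of 1.43 and 1.23 kb. The pooled siLSD1 list had a 3.73-kb peak over this pair, and the pooled siCtrl list had none. The 3 remaining regions of the window had peaks in 1 or 2 libraries each, and none of them separated the siRNAs. Of the pooled lists, only siCtrl had a peak, of 3.42 kb, over the region 16.6 to 18.6 kb past the gene start. Only the pooled siLSD1 list had a peak of 1.41 kb at 203015785 to 203017195, with a score at percentile 8.68.

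The MYF5-MYF6 pair carried little mark. No list had a peak inside the gene interval. The promoters of the pair printed above are therefore inferred to be uncovered, although their positions were not mapped to hg19. The nearest peak ended 3.33 and 3.46 kb before the interval in the siLSD1 libraries and 3.52 and 3.46 kb before it in the siCtrl libraries. That region, at 81096014 to 81097674, was the only one of the window found in all 4 libraries. It was 1.59 and 1.53 kb wide in the siLSD1 libraries and 1.21 and 1.35 kb wide in the siCtrl libraries, so it was broader in both siLSD1 libraries. Its score was of middle rank, from percentile 38.2 to 61.1 over the 6 lists.

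On the far side of MYF5, a region 22.2 to 23.4 kb after the start edge of MYF6 had 1.09 and 0.678 kb in the siLSD1 libraries, and no sequence and 0.803 kb in siCtrl replicates 1 and 2. A small neighbour at 21.0 to 21.6 kb had a peak in siCtrl replicate 2 alone among the libraries, and in the pooled siCtrl list. Upstream of MYF6, only the pooled siLSD1 list had a peak of 0.85 kb at 81074979 to 81075828, with a score at percentile 3.38. The whole window had 2.68 and 2.21 kb under peaks in the siLSD1 libraries and 1.21 and 2.82 kb in the siCtrl libraries. The means were 2.45 ± 0.332 kb and 2.02 ± 1.14 kb (SD, n = 2 each), and the difference of 0.428 kb was within the spread of the siCtrl libraries (two-sided exact permutation p = 1). Without siCtrl replicate 1 its sign was the other way, at -0.376 kb. Peak number averaged 2 in both groups.

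**Figure D3:**
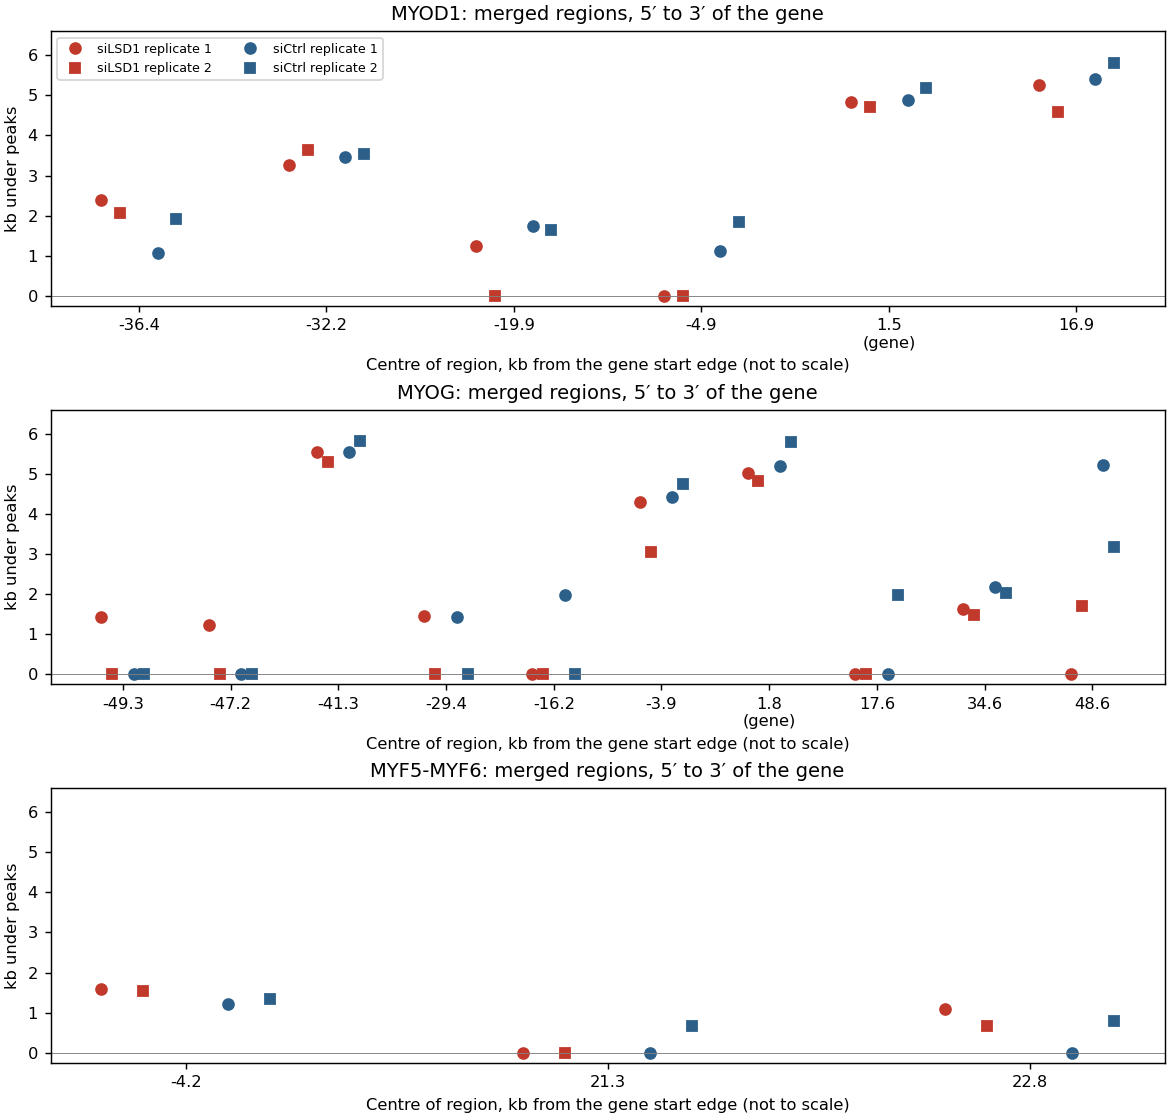
Kilobases under peaks in each of the 19 merged regions for the 4 libraries, ordered from upstream to downstream along the gene, with siLSD1 left of siCtrl. Several regions of the MYOD1 and MYOG windows, those over the genes included, have both siLSD1 libraries below both siCtrl libraries, the first region before MYOD1 is at 0 in both siLSD1 libraries, and the MYF5-MYF6 region before MYF6 is higher in both.

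Set against the genome, the order seen at MYOD1 and MYOG was uncommon in the full library lists, which differ in length. Against the 4.64% of 100-kb windows with less covered sequence in both siLSD1 libraries, 34.7% had more (23.9% with equal numbers of peaks). The other shares and ranks of this paragraph are given for the full lists only. Among the 1019 windows with at least 15 kb covered on average, a class set after the data were seen, 3.43% had less in both siLSD1 libraries. More peaks in both siLSD1 libraries occurred in 18.6% of windows, where fewer, as at MYOD1, occurred in 1.41%. The median window held 1 or 2 peaks per library, which leaves little room for a lower count. No share is given for windows as rich in peaks as MYOD1. The median difference over windows was 0.56 kb. Scaled to 100 kb, the MYOD1 difference was -2.72 kb and the MYOG difference -6.00 kb in the library lists. In the pooled lists the MYOG difference went the other way, at 2.07 kb in the unscaled window. Leaving out the 6 windows that overlap the 3 loci, 65 of 18411 windows (0.353%) were lower than MYOD1 and 7 (0.038%) were lower than MYOG. Windows with little covered sequence cannot differ as much, and the median was 3.33 kb. Among the 1017 of them with at least 15 kb covered on average, 20 (1.97%) were lower than MYOD1 and 3 (0.295%) were lower than MYOG.

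**Figure D4:**
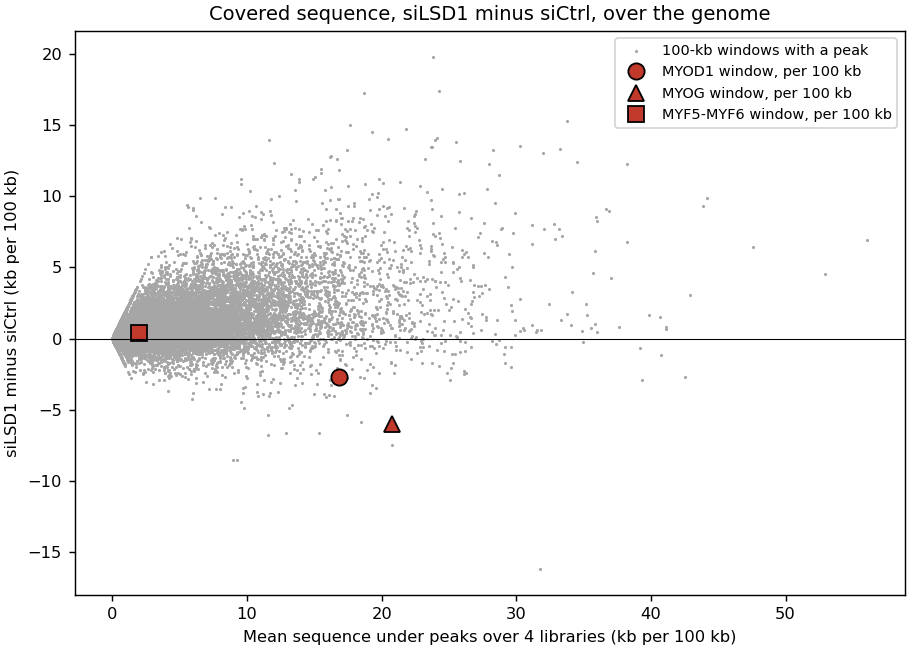
Difference in covered sequence (siLSD1 minus siCtrl, kb per 100 kb) against the mean over the 4 libraries for every 100-kb window with a peak (grey) and for the 3 windows scaled to the same length (red). The MYOD1 and MYOG windows lie at -2.72 and -6.00 kb, low among the grey points, and MYF5-MYF6 lies at 0.379 kb within them. Of the grey points, which include windows that overlap the 3 loci, 67 are lower than MYOD1 and 8 lower than MYOG.

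By region, none of the 19 was gained, that is, had peaks in both siLSD1 and neither siCtrl library, while 6.97% of all regions were (3.29% with equal numbers of peaks from each list). The region before MYOD1 at 17735223 was the 1 region lost, in the reverse sense, against 1.04% of all regions, and 1 of 19 is too few to set apart from that share. With equal numbers of peaks, 0 regions of the windows and 3.42% of all regions were lost. Of the 9 regions found in all 4 libraries, 5 were narrower in each siLSD1 library than in either siCtrl library, 2 were broader and 2 overlapped. Over the genome these shares were 9.62% narrower and 30.3% broader of 26653 common regions. Among common regions with a mean breadth of at least 4 kb, a class also set after the data were seen, 9.5% were narrower. The median difference in breadth was -0.262 kb over the 9 regions and 0.126 kb over all common regions. The 5 narrower regions belong to 2 windows and are not independent of each other.

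Single windows of 10 kb were tested with limma on covered kilobases, with adjustment over all 43372 windows tested. Of these, 0% were called higher and 0% lower, and the smallest adjusted p in limma was 0.129. Before adjustment, limma gave a p under 0.05 to 12.4% of windows as higher and 1.94% as lower. With equal numbers of peaks these shares were 7.55% and 4.71% of 34544 windows tested, and with quantile normalization 6.99% and 4.41%. The 3 loci held 15 tested windows, of which 0 were higher and 3 were lower at that level, and none passed after adjustment. The window just before MYOD1, from 17730001 to 17740000, had 0 and 0 kb in siLSD1 libraries and 1.11 and 1.93 kb in siCtrl libraries. Its difference was -1.52 kb, with a 95% interval from -2.64 to -0.396 kb (limma adjusted p = 0.207). The other 2 were far from MYOG on the PPFIA4 side, with differences of -3.35 kb (interval -6.58 to -0.121, limma adjusted p = 0.328) and -0.534 kb (-1.02 to -0.0441, limma adjusted p = 0.303).

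For the windows that hold the genes, the intervals of the difference included 0. At MYOD1, the window from 17740001 to 17750000 differed by -0.217 kb (95% interval -0.932 to 0.497, limma adjusted p = 0.788). At MYOG, the window from 203050001 to 203060000 differed by -0.969 kb (-2.59 to 0.655, limma adjusted p = 0.612). The window before MYF6 differed by 0.279 kb (-0.214 to 0.771, limma adjusted p = 0.636). Over the 15 windows the median difference was -0.217 kb, and 10 were below 0 and 5 above, where the median of all tested windows was 0.213 kb.

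**Figure D5:**
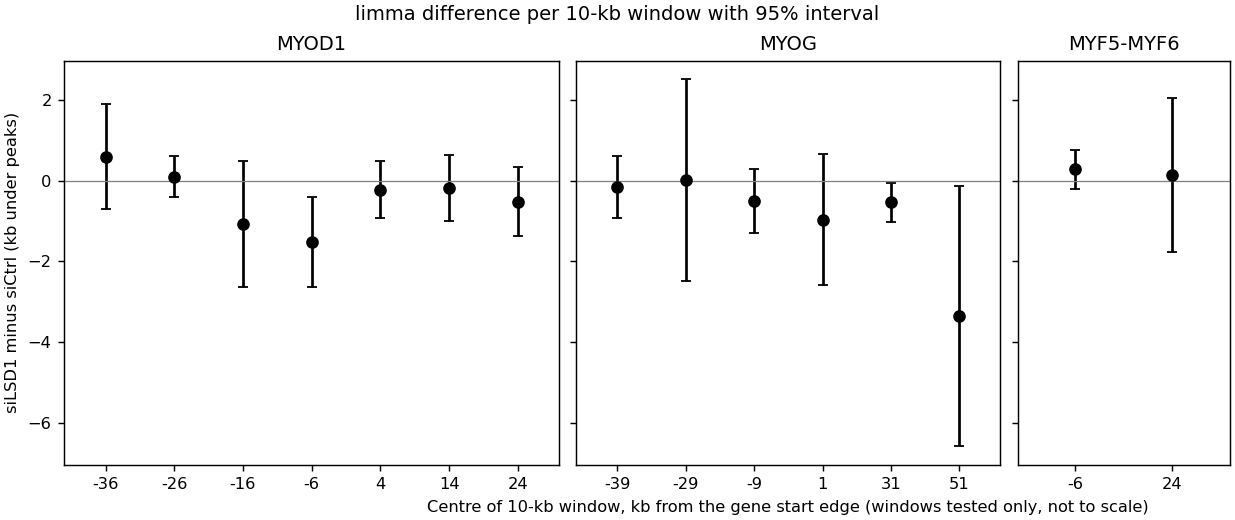
Difference in covered kilobases (siLSD1 minus siCtrl) with its 95% limma interval for the 15 tested 10-kb windows, placed by their centre in kb from the gene start edge. The 3 intervals below 0 are the window before MYOD1 and the 2 windows farthest past MYOG; the windows that hold MYOD1 and MYOG include 0.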

How the data were processed

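H3K4me2 ChIP-seq of RD cells was taken from 4 library peak lists and 2 pooled lists, each peak with a start, an end and a score. The score was deposited by the authors; from its minimum of 50 it appears to be a p-value on a log10 scale, multiplied by 10 with the sign turned. Reads were aligned with Bowtie to hg19, per the submitters' processing notes, and the peak names deposited by the authors carry the name of MACS. The sources used here do not give versions, settings, the use of inputs or the way of pooling.

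Members and lists were chosen with earlier results of these data known. All 4 members and all regions merged from the library lists in the windows are reported. Distances from a gene start were measured from the edge of the interval and not from an annotated hg19 start. Neighbouring genes are named only from RefSeq order in GRCh38.p14, and a list of other muscle genes was not used because no hg19 annotation was at hand. Peaks on chromosomes 1 to 22 and X were kept, peaks overlapping by at least 1 bp were merged, and covered sequence was clipped at window edges. Window totals were compared by exact permutation tests over libraries. Covered kilobases of 10-kb windows with at least 0.5 kb in at least 2 libraries were fitted across the genome with limma 3.58.1 (trend and robust, statmod 1.5.0, R 4.3.3), with Benjamini-Hochberg adjustment and a threshold of 0.05. Region building, coverage and the limma fit were run on simulated data. The values simulated for limma were Gaussian and not bounded at 0, so that run does not stand for windows that lack a peak in some libraries. Python 3.11.15, numpy 2.4.6, scipy 1.17.1 and matplotlib 3.10.9 were used.

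Alternatives were 33878 top-scoring peaks per list, the upper 50% by score, flanks of 25 and 100 kb, peaks wholly inside, pooled lists, other merging rules, other limma settings, a replicate block and leaving out each library.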

Additional observations from a re-analysis of the deposited data

How the results depend on the processing

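The lower covered sequence at MYOD1 kept its sign under every alternative run. It ranged from -1.21 kb in the upper 50% of peaks by score to -4.14 kb with flanks of 100 kb. It was -1.65 and -3.94 kb without siCtrl replicates 2 and 1, and -1.81 and -3.78 kb without siLSD1 replicates 2 and 1. Leaving out a library could not change this sign at MYOD1 or MYOG, because both siLSD1 libraries lay below both siCtrl libraries. A replicate block, in a balanced design, and peaks wholly inside, where no library peak crossed the edge, gave the main differences again. At MYOG the difference ranged from -3.44 to -9.12 kb (-4.11 to -8.37 kb without single libraries), but was 2.07 kb in the pooled lists. The difference in peak number there was 1 in the pooled lists and -1.5 to 0.5 without single libraries. At MYF5-MYF6, leaving out a library gave -0.376 to 1.23 kb and -1 to 1 peaks, and equal numbers of peaks and the upper 50% by score each gave 0.5 peaks. The region lost before MYOD1 was not lost with equal numbers of peaks, which gave 0 lost regions. Its peak in siCtrl replicate 2 scored 70.4, below the limit of 105 for that list. The upper 50% by score gave another lost region, 17707111 to 17710563, which has peaks in every full list. Its highest score was at percentiles 47.8 and 44.1 in siLSD1 replicates 1 and 2, against 52 and 53 in siCtrl replicates 1 and 2. In the pooled lists it was at percentile 66.5 after siLSD1 and 57.9 after siCtrl. Leaving out a library gave 0 to 2 gained and 2 to 3 lost regions (7.9 to 19.5% and 2.49 to 7.05% of all regions). In each such run a single library stood for a group. The region before MYOD1 was among the lost ones each time, which the definition fixed. It had peaks in both siCtrl libraries and in neither siLSD1 library. Of common regions, whose order was tried in other settings only after the data were seen, 3 of 5 were narrower in the upper 50% by score (9.79% over the genome), 5 of 7 with equal numbers (9.43%) and 5 to 7 of 9 or 10 without single libraries (14.1 to 30.7%). The share of 100-kb windows with more covered sequence in both siLSD1 libraries was 23.9% with equal numbers, 30.6% in the upper 50% and 38.2% where all libraries had a peak. With quantile normalization limma called 5 windows higher and 4 lower, 0 of them in the 3 loci. The causes were not tested.

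A replicate block left limma at 0 windows in each direction (6135 higher and 889 lower at an unadjusted p under 0.05) and left each window difference as it was, since the design is balanced. Deviations of same-numbered libraries correlated at 0.15 over 43372 windows, and with 2 pairs the numbers were not taken as pairs. Without counts or inputs, changes of signal within a peak could not be seen. With 2 libraries a group, no exact permutation p for a window total goes below 0.333.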
